A study of Mus musculus with 1470 samples.

Results

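Toll-like receptors and other innate immune sensors were followed in single mouse liver cells as 10 genes, chosen by symbol from the 14915 gene rows of the expression table: Tlr2, Tlr4, Tlr7, Tlr9, Tlr13, Cd14, Ly96, Myd88, Nlrp3 and Tmem173. All 10 symbols were found. The table held 1470 non-parenchymal cells from 6 male C57BL/6J mice, 3 fed normal chow (ND1, ND2 and ND3) and 3 fed a high-fat diet (HFD1, HFD2 and HFD3) for 9 weeks from 5 weeks of age. Livers of both groups were perfused in vivo with collagenase, live cells were sorted one by one, and each was read with Smart-seq2, a full-length complementary DNA method. The comparisons were between cell classes within a mouse and between the diets within a class.

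Toll-like receptors sit on the cell surface or in endosomes and bind microbial molecules, and nearly all of them signal through the adaptor MyD88 to NF-kB and interferon regulatory factors. The liver receives gut-derived bacterial products through the portal vein, and both its resident macrophages, the Kupffer cells, and its sinusoidal endothelial cells are known to take them up. TLR4 senses lipopolysaccharide together with MD-2 (encoded by Ly96) and CD14, TLR2 senses bacterial lipoproteins, TLR7, TLR9 and TLR13 sense single-stranded RNA, unmethylated DNA and bacterial ribosomal RNA in endosomes, NLRP3 forms an inflammasome, and STING (Tmem173, now named Sting1) relays cytosolic DNA signals.

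Cells were grouped by clustering on other genes, since the 10 genes and the pathway genes named below were kept out of it, and each cluster was named from marker genes. The classes described are therefore Kupffer-like (26 to 54 cells per mouse, in 2 clusters of which the smaller held 83), monocyte-derived-like (43), endothelial-like (464), B-like (250) and plasmacytoid dendritic-like (pDC, 23), together 1034 cells, and are called by the short names from here on. Summed over the 10 Kupffer markers, including Clec4f, Vsig4 and Timd4, the Kupffer class reached 29980 to 43630 RPKM per mouse, and the monocyte-derived class 16.3 to 1025. The monocyte-derived class held a subcluster of 13 cells led by Cd209a and genes of antigen presentation, named conventional dendritic from its markers, beside 30 cells with more of the monocyte genes Ace, Cx3cr1 and Itgam. The monocyte gene Ccr2 did not separate them, with 23 of 30 and 10 of 13 cells detected. Cx3cr1 was also detected in 7 of the 13. The remaining classes, 357 T/NK-like cells, 14 neutrophil-like cells, 35 hepatocyte-like cells and 30 erythrocyte-like cells, serve as a backdrop.

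The level of a gene in a class is the mean of log2(RPKM + 1) over the cells of 1 mouse, where RPKM is reads per kilobase of transcript scaled to the mapped reads of the cell. The order of different genes can depend on this scale. In Kupffer cells the mean level was 1.17 for Tlr7 and 0.83 for Tlr4, but 3.74 and 4.01 with RPKM averaged before the logarithm. A mouse counted for a class with at least 2 cells, which left 5 mice for pDC because ND2 had 1 such cell. Reads per cell, estimated from the steps between low values, had a median of 93935 in Kupffer, 227779 in monocyte-derived, 120703 in endothelial, 115650 in B and 255970 in pDC cells. Cells of HFD2 had a median of 1596 detected genes against 2364 to 3163 in the other mice and were gathered in clusters that they shared with other mice: all 30 of its Kupffer cells lay in the smaller of the 2 Kupffer clusters and all but 4 of its endothelial cells in 1 of the 2 endothelial clusters. Of the 19 differences between classes that were called below, 18 were also called without HFD2, the exception being Tlr7 between Kupffer and pDC.

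**Figure D1:**
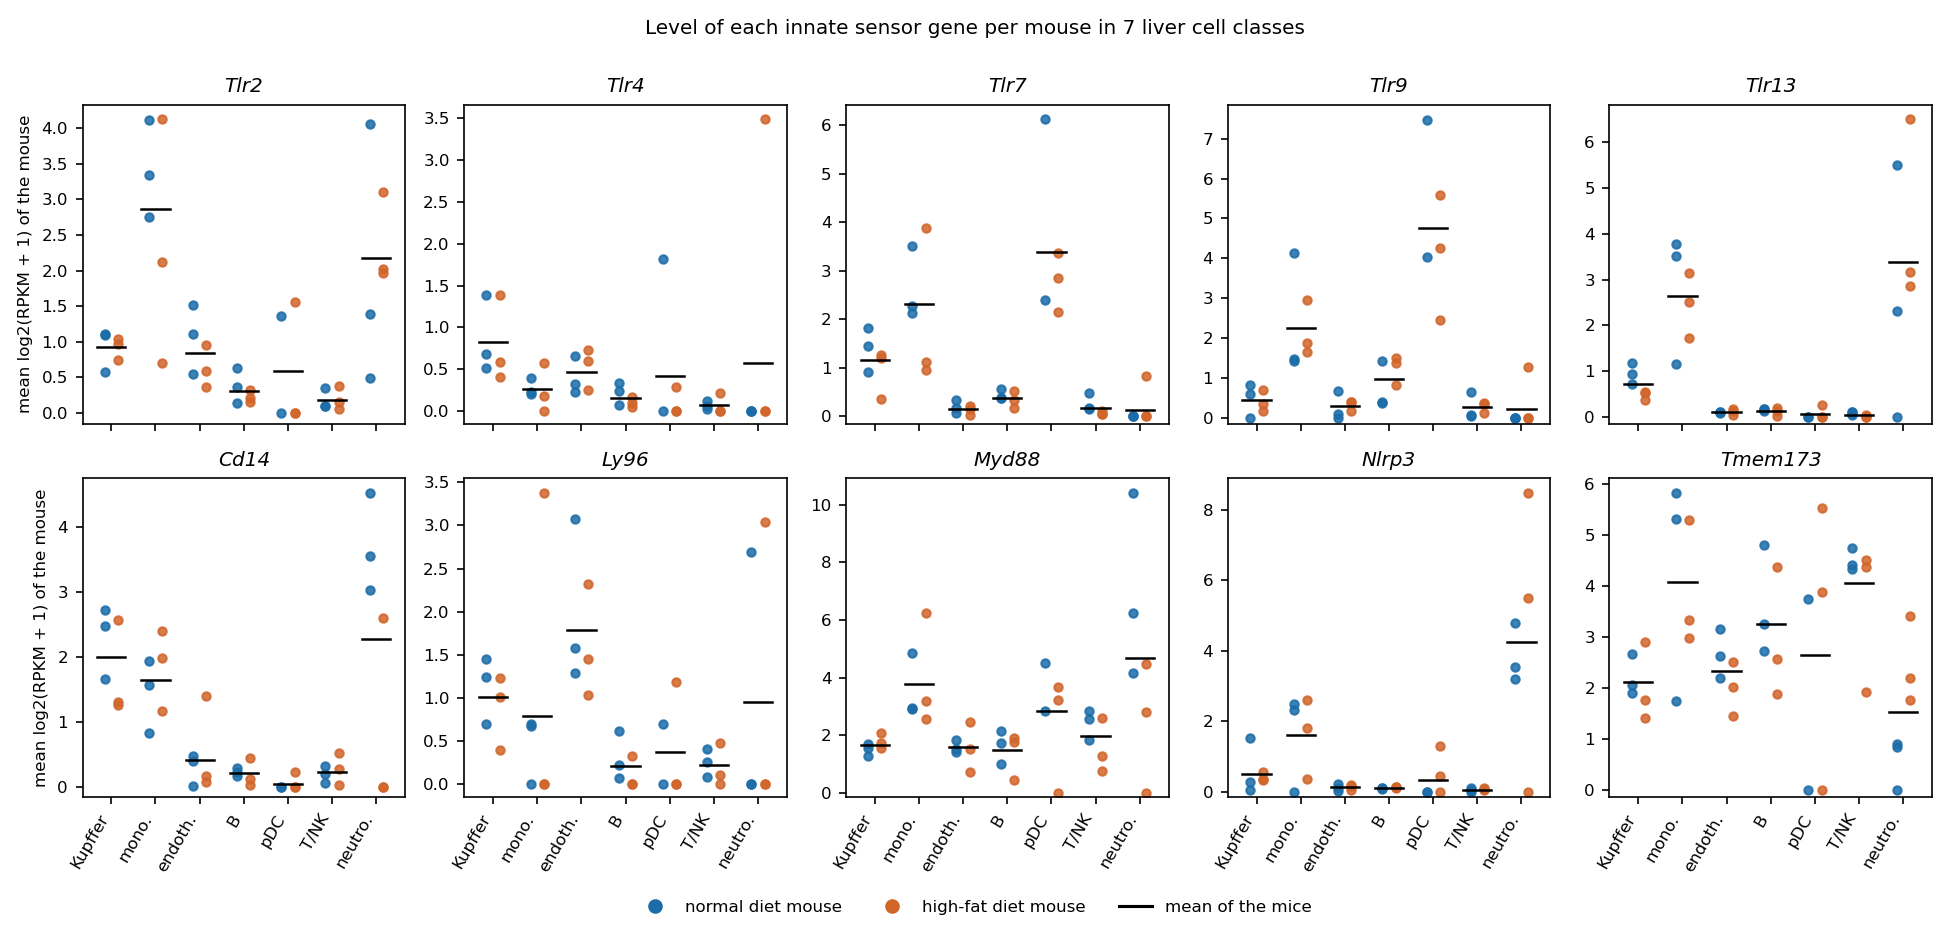
Each point is 1 mouse (blue, normal diet; orange, high-fat diet), the vertical axis is the mean log2(RPKM + 1) of its cells in the class, with a separate scale per gene, and the bar is the mean of the mice. Tlr7 and Tlr9 stood highest in pDC, with means of 3.38 and 4.76, Ly96 in endothelial cells (1.79), and Tlr13 and Nlrp3 in monocyte-derived cells among the 5 described classes, with neutrophils above those for both.

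Of the lipopolysaccharide receptor genes, Cd14 marked the myeloid classes and Ly96 was highest in endothelial cells. Tlr4 was detected most often in Kupffer cells, at 15.7% of them. Cd14, which encodes the co-receptor that hands lipopolysaccharide to TLR4, had levels in Kupffer cells of 1.26 at the lowest, 2.07 at the median and 2.71 at the highest mouse. In monocyte-derived cells it ranged from 0.83 to 2.4 with a median of 1.75, so these classes overlapped. Endothelial cells had 0.02 to 1.40 (median 0.29), B cells 0.04 to 0.45 (median 0.20), and in pDC it was listed at 0 in 4 of 5 mice. Kupffer cells exceeded endothelial cells by 1.57 ± 0.22 (SE, 6 of 6 mice, limma with Benjamini-Hochberg adjustment over all genes, adjusted p = 0.000162) and B cells by 1.78 ± 0.22 (6 of 6 mice, adjusted p = 5.6e-05). The excess over pDC was 1.81 ± 0.46 (5 of 5 mice, adjusted p = 0.0189) and was not called without ND1 (1.85) or without HFD3 (1.68). Against monocyte-derived cells the difference was 0.35 with a 95% interval of -0.42 to 1.12.

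Ly96 went the other way. Its level in endothelial cells was 1.03 at the lowest, 1.52 at the median and 3.07 at the highest mouse, and in Kupffer cells 0.40, 1.12 and 1.45. Endothelial cells were higher in 6 of 6 mice, by 0.79 ± 0.19 (limma, adjusted p = 0.00586). This excess was not called when RPKM values were averaged before the logarithm (1.10, adjusted p = 0.138). B cells had 0 to 0.61, and Kupffer cells exceeded them by 0.80 ± 0.20 in 6 of 6 mice (limma, adjusted p = 0.00773). In monocyte-derived cells Ly96 was 3.38 in HFD1 and 0 to 0.70 in the other 5 mice. The 12 endothelial markers summed to 2471 RPKM in the monocyte-derived cells of HFD1 and to at most 475 in those of the other mice, and their part in the Ly96 value was not tested.

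Tlr4 was detected, at an RPKM of at least 1, in 15.7% of Kupffer cells (95% Wilson interval 11.8 to 20.7%, 40 cells), 10.3% of endothelial cells (7.89 to 13.5%, 48 cells) and 4.4% of B cells (2.47 to 7.71%, 11 cells). These intervals cover counting error over cells only, not the spread between mice. The Kupffer level was 1.39 in ND2 and 1.38 in HFD1, and 0.41 to 0.69 in the other 4 mice, so the mice fell into a high pair with 1 mouse of each diet. Ly96 in endothelial cells was also highest in these mice, at 3.07 in ND2 and 2.33 in HFD1 against 1.03 to 1.58. Kupffer cells exceeded endothelial cells in Tlr4 by 0.36 with a 95% interval of 0.02 to 0.71 (5 of 6 mice, limma, adjusted p = 0.0859), which did not pass the threshold of 0.05. Against monocyte-derived cells the Kupffer level was higher in 6 of 6 mice, by 0.56 (limma, adjusted p = 0.204). Each of these 2 differences passed after the class means were centred on their median gene, at 0.55 (limma, adjusted p = 0.0185) and 1.07 (adjusted p = 0.0315), and with RPKM averaged first, at 1.67 (adjusted p = 0.00733) and 3.43 (adjusted p = 0.00612).

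The 3 parts of the lipopolysaccharide receptor were seldom read in the same cell. Tlr4, Ly96 and Cd14 were all detected in 3 Kupffer and 2 endothelial cells, 1.18% and 0.431% of these classes, while at least 1 of them was detected in 46.1% and 37.7%. Over cells with any value above 0, the median number of reads was 4 for Tlr4, 7.5 for Ly96 and 2 for Cd14, and 37.9%, 31.9% and 43.9% of these cells held a single read. At this depth a cell with no read cannot be called negative.

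Tlr2 was highest in monocyte-derived cells, and its endothelial level was close to that of Kupffer cells. In monocyte-derived cells it ran from 0.70 (HFD3) over a median of 3.05 to 4.12, in Kupffer cells from 0.58 over 1.0 to 1.11, and in endothelial cells from 0.36 over 0.78 to 1.52. Monocyte-derived cells exceeded Kupffer cells in 5 of 6 mice, and the Kupffer value was lower by 1.94 (limma, -1.94 ± 0.43 SE, adjusted p = 0.00358). Kupffer minus endothelial was 0.07 with a 95% interval of -0.33 to 0.48. B cells had 0.14 to 0.64, and Kupffer cells exceeded them by 0.62 ± 0.16 in 6 of 6 mice (limma, adjusted p = 0.00967).

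The endosomal receptor genes Tlr7 and Tlr9 were highest in pDC, and Tlr13 was not. Tlr9, the receptor gene for unmethylated CpG DNA, was 2.46 (HFD3), 4.03 (ND3), 4.25 (HFD2), 5.60 (HFD1) and 7.48 (ND1) in pDC and was detected in 16 of 23 of these cells. In B cells it ranged from 0.38 to 1.51 (median 1.10), in monocyte-derived cells from 1.42 to 4.13 (median 1.76), in Kupffer cells from 0 to 0.82 (median 0.47) and in endothelial cells from 0 to 0.68 (median 0.29). Each of these 5 pDC values was above every B, Kupffer and endothelial value, while the single pDC of ND2, which entered no test, had Tlr9 at 0. Tlr9 in pDC exceeded that in B cells by 3.66 ± 0.61 (limma, 5 of 5 mice, adjusted p = 0.00317), and Kupffer cells lay below pDC by 4.24 (-4.24 ± 0.66, 5 of 5 mice, adjusted p = 0.0012). The excess over B cells was 1.70 (limma, adjusted p = 0.303) when RPKM was averaged before the logarithm. Kupffer minus B was -0.54 (5 of 6 mice lower, 95% interval -1.02 to -0.07, limma, adjusted p = 0.0697), which did not pass, but did with RPKM averaged first (-3.29, adjusted p = 0.0432). The detection of Tlr9 also differed between mice in classes where it was low: ND2 had 0 of 26 Kupffer and 0 of 62 endothelial cells with the gene, while ND1 had 27 of 108 endothelial and 20 of 69 T/NK cells.

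Tlr7, the receptor gene for single-stranded RNA, was 2.15 (HFD1), 2.4 (ND3), 2.85 (HFD2), 3.37 (HFD3) and 6.12 (ND1) in pDC. Monocyte-derived cells followed with 0.96 to 3.88 (median 2.20), then Kupffer cells with 0.36 to 1.82 (median 1.23), B cells with 0.17 to 0.56 and endothelial cells with 0.03 to 0.33. Unlike Tlr9, it was higher in Kupffer than in B cells, by 0.78 ± 0.20 in 6 of 6 mice (limma, adjusted p = 0.00848), and higher than in endothelial cells by 1.0 ± 0.20 in 6 of 6 mice (adjusted p = 0.0017). pDC exceeded B cells by 2.99 ± 0.59 in 5 of 5 mice (limma, adjusted p = 0.00808). Kupffer cells lay below pDC by 2.16 (-2.16 ± 0.56, limma, adjusted p = 0.0218), but this was not called without ND1 (-1.63) or HFD2 (-2.08), nor after centring on the median gene (-1.78, adjusted p = 0.0615) or averaging RPKM first (-1.37, adjusted p = 0.369), and stood at adjusted p = 0.05 without HFD3 (-2.17). Both receptors were read together in 52.2% of pDC (12 cells), 20.9% of monocyte-derived (9 cells), 4.0% of B (10 cells) and 3.15% of Kupffer cells (8 cells).

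Tlr13, which encodes a sensor of bacterial ribosomal RNA, was a gene of the monocyte-derived and Kupffer classes and of neutrophils. Its level was 1.15 to 3.77 (median 2.83) in monocyte-derived cells and 0.37 to 1.17 (median 0.63) in Kupffer cells, higher in the former in 6 of 6 mice (limma, Kupffer minus monocyte-derived -1.92 ± 0.38, adjusted p = 0.0017). No pDC reached an RPKM of 1 (0 of 23 cells, which allows a share of up to 13%), and endothelial and B cells lay between 0.02 and 0.19. The 13 cells of the conventional dendritic subcluster differed from the other 30 monocyte-derived cells in these receptors: Tlr13 was detected in 1 of 13 against 18 of 30 cells and Tlr7 in 1 of 13 against 18 of 30, while Tlr9 was detected in 6 of 13 against 13 of 30. These counts are over cells and carry no test.

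The adaptor gene Myd88 was broad. Its level was 1.29 to 2.08 (median 1.64) in Kupffer, 0.74 to 2.45 (median 1.52) in endothelial and 0.46 to 2.16 (median 1.75) in B cells, which overlapped throughout, and 2.58 to 6.24 (median 3.06) in monocyte-derived cells, above Kupffer cells in 6 of 6 mice (limma, Kupffer minus monocyte-derived -2.13 ± 0.45, adjusted p = 0.00273). Kupffer minus endothelial was 0.08 (95% interval -0.31 to 0.46) and Kupffer minus B 0.15 (-0.33 to 0.62). In pDC it was listed at 0 in the 4 cells of HFD2 and was 2.84 to 4.53 in the other 4 mice.

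Of the cytosolic sensors, Nlrp3 was detected in few cells and Tmem173 was found in most classes. Nlrp3 was 0.05 to 0.57 in 5 mice and 1.53 in ND3 in Kupffer cells (13 of 40 cells detected in ND3), 0 to 2.60 (median 2.08) in monocyte-derived cells, and at or below 0.24 in endothelial and B cells. The difference between monocyte-derived and Kupffer cells was near the threshold (limma, -1.08 ± 0.38, adjusted p = 0.0469, 5 of 6 mice) and was not called without ND1 (-0.89), ND3 (-1.11), HFD1 (-0.999) or HFD3 (-0.89). Neutrophils, with 14 cells in all, had Nlrp3 in 9 cells and Tlr13 in 8. Their Nlrp3 levels were 0, 3.21, 3.53, 4.81, 5.51 and 8.48, from 2 or 3 cells per mouse. The 7 neutrophil markers summed to 2756 RPKM in the Kupffer cells of HFD3, to 86.3 in those of ND3 and to 15 to 76.2 in those of the other 4 mice, and their part in the Nlrp3 values was not tested.

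Tmem173 had levels of 1.41 to 2.89 (median 1.98) in Kupffer, 1.45 to 3.15 (median 2.34) in endothelial, 1.87 to 4.79 (median 2.98) in B and 1.74 to 5.82 (median 4.31) in monocyte-derived cells, and 1.92 to 4.75 (median 4.38) in T/NK cells. Kupffer cells were lower than monocyte-derived cells in 5 of 6 mice (limma, -1.96 ± 0.50, adjusted p = 0.00864) and lower than B cells in 5 of 6 mice (-1.14 ± 0.33, adjusted p = 0.0163). The latter was not called without ND1 (-0.95) or HFD1 (-0.85). In pDC the mice split into 2 at 0 (ND3 and HFD2) and 3 between 3.75 and 5.53.

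**Figure D2:**
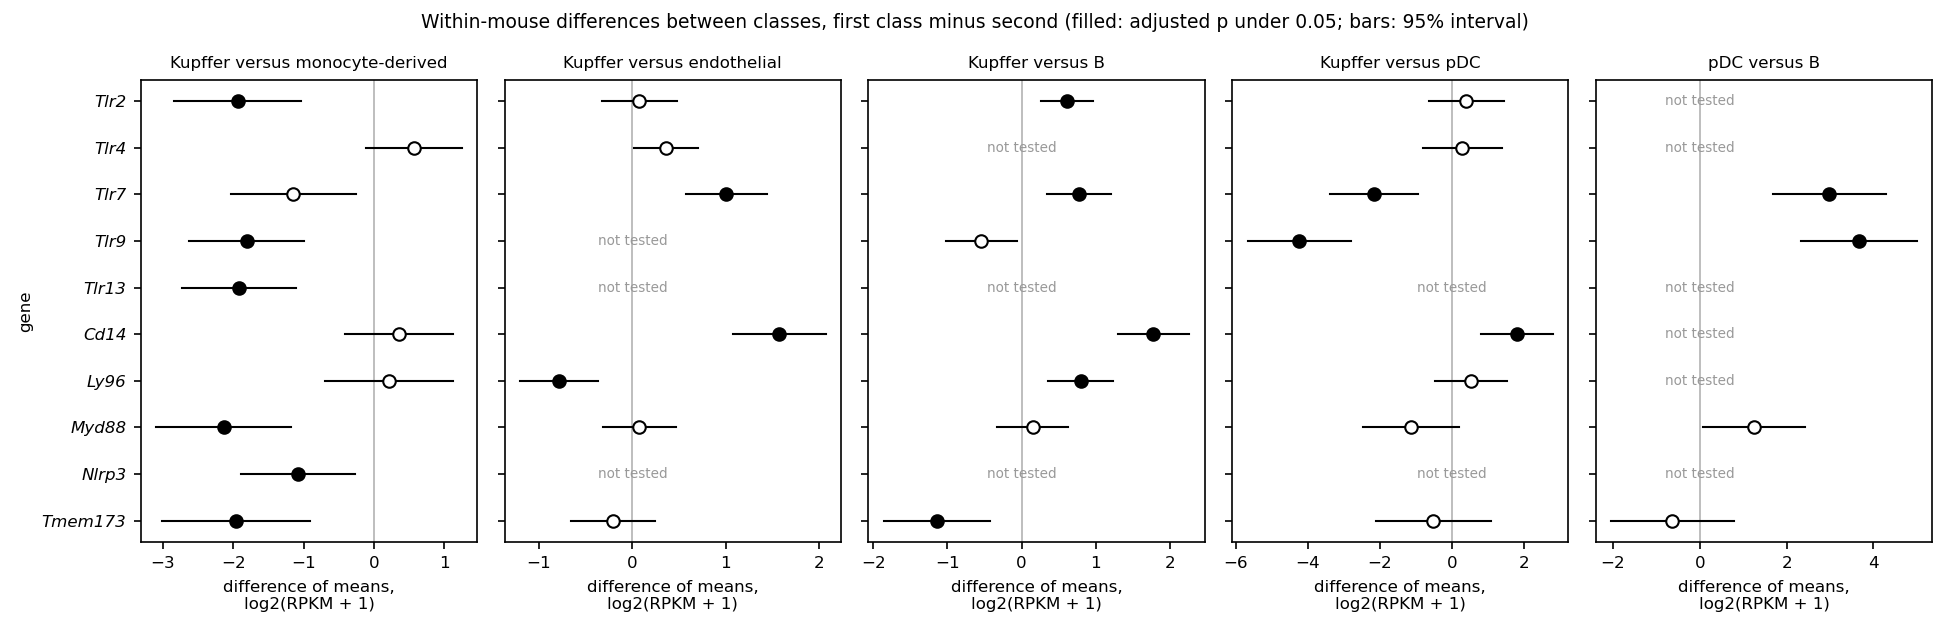
Each panel shows, for 1 pair of classes, the mean within-mouse difference in log2(RPKM + 1), first class minus second, with its 95% interval; filled points have an adjusted p under 0.05 and genes under the expression filter read "not tested". In Kupffer versus monocyte-derived, 6 filled points lie left of 0, while Cd14 and Tlr7 lie right of 0 against endothelial and B cells and Ly96 lies left of 0 against endothelial cells only.

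Counted over the gene set, every call between Kupffer and monocyte-derived cells was on the monocyte-derived side. All 10 genes passed the filter on low levels, 6 were lower in Kupffer cells (Tlr2, Tlr9, Tlr13, Myd88, Nlrp3 and Tmem173) and 0 were higher, where 22.7% of all 7155 genes tested were lower and 3.65% higher, 26.3% in all. The median difference was -1.48 over the 10 genes and -0.56 over all genes, and the monocyte-derived cells held more reads. Tlr7 was at -1.15 (limma, adjusted p = 0.0537) and passed without the dendritic subcluster (-1.90, adjusted p = 0.00673). Centring on the median gene turned the split of calls over all genes from 13.9% to 39.2% higher, kept 5 of the 6 calls (Nlrp3 at -0.58, adjusted p = 0.342) and added Tlr4. When RPKM was averaged before the logarithm, the 6 differences kept their sign but none was called (limma, -3.56 for Tlr9, -1.74 for Tlr13, -1.65 for Myd88, -1.59 for Tlr2, -0.90 for Nlrp3 and -0.57 for Tmem173, adjusted p = 0.0754 to 0.692), and Tlr4 was called higher (3.43, adjusted p = 0.00612).

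The other pairs were mixed in direction. Against endothelial cells 7 of the 10 genes passed the filter, of which Tlr7 and Cd14 were higher in Kupffer cells and Ly96 lower, where 13.8% and 27.8% of all genes were called, 41.6% in all. Against B cells 7 passed, of which Ly96, Tlr2, Tlr7 and Cd14 were higher and Tmem173 lower, with 17% and 20.6% of all genes, 37.6% together. Against pDC 8 passed, of which Cd14 was higher and Tlr7 and Tlr9 lower, with 3.8% and 13.3% of all genes, 17.1% together. After centring, the share of all calls that were higher went from 33.2% to 49.1% against endothelial cells, from 45.3% to 52.2% against B cells and from 22.2% to 40% against pDC. Between pDC and B cells 4 passed, of which Tlr7 and Tlr9 were higher in pDC and 0 lower, with 8.74% and 1.63% of all genes, 10.4% together, and centring moved the share of calls that were higher from 84.3% to 74.1%. Genes that reached the filter only through the class where they were high had to differ, so these counts describe the set and do not measure an enrichment.

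Neighbours in the order of the 5 classes were compared by an exact two-sided sign-flip test. Of 24 pairs of neighbouring classes with 6 mice, 6 had p under 0.05, each at 0.0312, the smallest that 6 mice allow and reached only where every mouse has the same sign. The other 16 pairs included pDC with 5 mice and cannot go below 0.0625, so this test says nothing on them, and 2 of them had the same order in 5 of 5 mice. Monocyte-derived above Kupffer for Tlr2 and for Nlrp3, both called by limma above, were at p = 0.0625 and 0.0938 here, each with 5 of 6 mice. The 6 pairs were endothelial above Kupffer for Ly96, Kupffer above B for Tlr7 and Tlr13, monocyte-derived above B for Tlr9, monocyte-derived above Kupffer for Tlr13 and monocyte-derived above endothelial for Cd14. These p-values are unadjusted.

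Detection was also estimated at equal depth. When each cell was reduced to 50000 reads, leaving out shallower cells and so keeping 1246 of 1470, with 41 monocyte-derived and 23 pDC, the expected share of cells with a read was 67.3% in pDC and 19% in B cells for Tlr9, beside 69.6% and 24% of all cells at an RPKM of at least 1. These 2 shares differ in the rule of detection and in the cells, as well as in depth. For Ly96 it was 23.4% in endothelial and 12.3% in Kupffer cells, beside 25.6% and 15.7%. For Tlr2 it was 42% in monocyte-derived and 17.1% in Kupffer cells, beside 41.9% and 22.4%, and for Tlr13 39.8% and 14.7%, beside 44.2% and 15.4%. For Myd88 it was 24.8% in Kupffer and 51.8% in monocyte-derived cells, beside 37.8% and 60.5%. In each of these pairs the same class was higher by both measures, but some other pairs changed order. For Ly96 monocyte-derived cells were above Kupffer cells at an RPKM of at least 1 (18.6% and 15.7%) and below at 50000 reads (9.06% and 12.3%). For Tmem173 pDC were above B cells by the first measure (60.9% and 56.8%) and below by the second (43.7% and 46.7%).

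**Figure D3:**
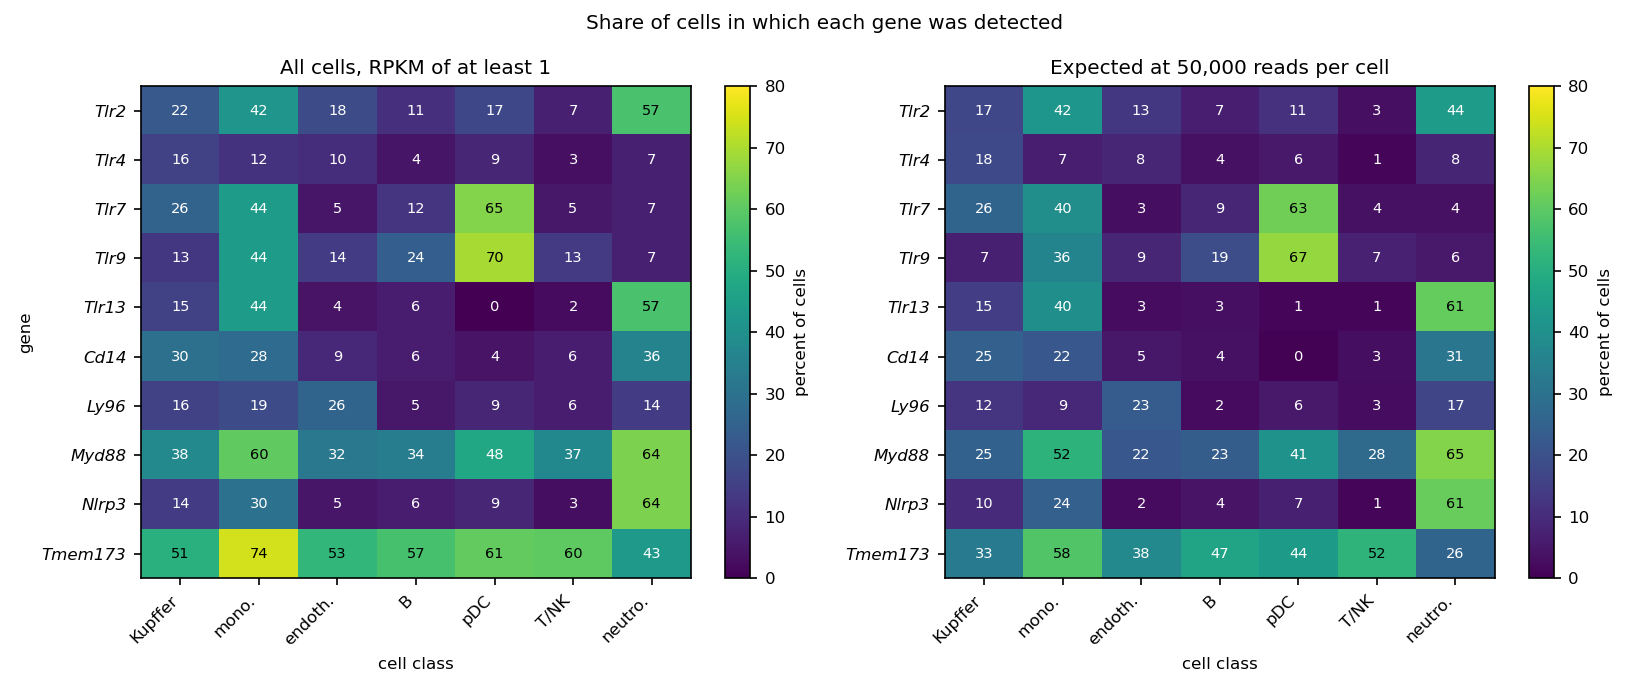
Percent of cells in which each gene (rows) was detected in each class (columns), on the left at an RPKM of at least 1 in all cells and on the right as estimated at 50000 reads per cell, with the color scale from 0 to 80%. Tlr9 and Tlr7 in pDC are at 67.3% and 62.6% at equal depth, beside 69.6% and 65.2% on the left. Tmem173 is at 33.1% in Kupffer and 58.3% in monocyte-derived cells, beside 50.8% and 74.4%.

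RNA of Kupffer markers was read at a low level in every other class, and the 10 genes were compared with it. In endothelial cells the 10 Kupffer markers summed to 0.41 to 3.66% (median 0.65%) of their Kupffer level in the same mouse, and in B cells to 0.13 to 3.47% (median 0.56%). Cd14 stood at a median of 0.57% in B cells, the same as the markers, and at 5.61% in endothelial cells. Tlr13 stood at 1.29% in endothelial and 1.22% in B cells. In endothelial cells the medians of the other 8 genes were 190% of the Kupffer mean RPKM for Ly96, 106.4% for Myd88, 95.4% for Tmem173, 61.9% for Tlr2, 27.3% for Tlr4 (17 to 39.5%), 18.2% for Tlr9, 16.8% for Nlrp3 and 2.2% for Tlr7 (0.172 to 96.1%). The Cd14 level of 1.40 in endothelial cells of HFD3, where the other mice had 0.02 to 0.49, came with the highest Kupffer marker sum in endothelial cells (1098 RPKM in HFD3 against 180 to 752), and its part in the value was not tested.

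**Figure D4:**
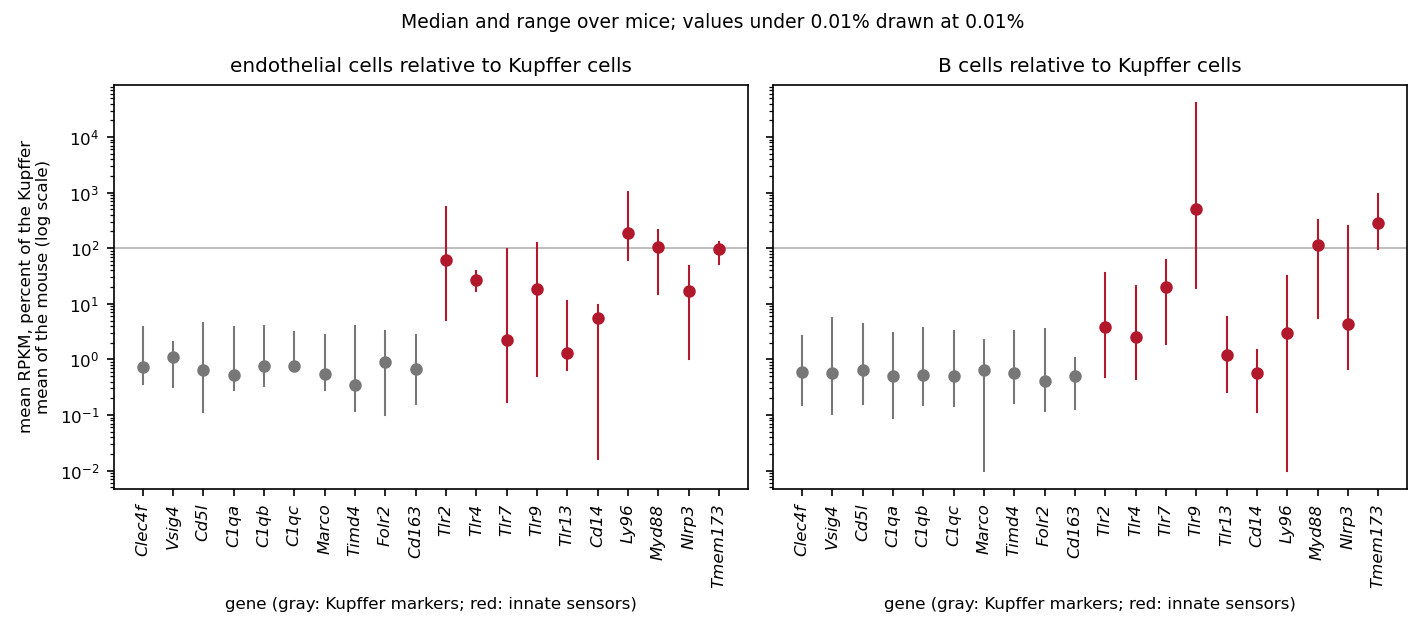
Mean RPKM in endothelial (left) and B cells (right) as a percent of the Kupffer mean of the same mouse, on a log scale, for 10 Kupffer markers (gray) and the 10 sensor genes (red), with the median as a point and the range over mice as a line. Cd14 lies among the markers in B cells with a median of 0.57%, while Ly96, Myd88 and Tmem173 lie near or above 100% in endothelial cells.

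In RefSeq on GRCm38.p6, the receptor genes lie at chr3:83836272-83841824 (Tlr2), chr4:66827551-66846581 (Tlr4), chrX:167303380-167330574 (Tlr7), chr9:106222598-106226876 (Tlr9) and chrX:106143275-106160493 (Tlr13). Of the other genes, Ly96 lies at chr1:16688456-16709605, Myd88 at chr9:119335934-119340018 and Nlrp3 at chr11:59541569-59566955. The region upstream of the start of transcription is shown for the 3 genes that were higher in monocyte-derived cells in 6 of 6 mice, Myd88, Tlr9 and Tlr13. The sequences are the 250 bases before the RefSeq start on GRCm38.p6, in the direction of the gene, for Myd88 at chr9:119340019-119340268 (minus strand), Tlr9 at chr9:106222348-106222597 (plus strand) and Tlr13 at chrX:106143025-106143274 (plus strand). Capitals mark a match to the interferon-stimulated response element, searched as 2 GAAA runs with 2 free bases between them.
Myd88: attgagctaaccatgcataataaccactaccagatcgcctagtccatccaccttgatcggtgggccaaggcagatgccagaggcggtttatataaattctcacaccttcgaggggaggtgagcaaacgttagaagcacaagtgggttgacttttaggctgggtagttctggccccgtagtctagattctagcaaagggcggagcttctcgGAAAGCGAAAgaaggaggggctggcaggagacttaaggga
Tlr9: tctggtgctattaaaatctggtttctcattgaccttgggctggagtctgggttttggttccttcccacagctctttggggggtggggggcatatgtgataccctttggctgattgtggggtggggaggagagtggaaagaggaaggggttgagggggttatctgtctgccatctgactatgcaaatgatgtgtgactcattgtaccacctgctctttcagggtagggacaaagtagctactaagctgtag
Tlr13: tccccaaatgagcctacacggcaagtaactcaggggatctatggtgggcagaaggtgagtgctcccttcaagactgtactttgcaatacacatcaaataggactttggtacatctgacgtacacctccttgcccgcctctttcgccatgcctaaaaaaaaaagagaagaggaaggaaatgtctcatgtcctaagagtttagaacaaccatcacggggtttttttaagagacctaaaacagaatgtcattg
The match in Myd88 lay 40 to 31 bases before the start. Both strands were searched for 4 motifs: GAGGAAGT, bound by PU.1, was found in 2.44% of 32851 promoters of the same length, the composite Ets and interferon regulatory factor element in 2.3%, the interferon-stimulated response element in 2.98% and an NF-kB site in 0.356%. The composite element and the response element share their second GAAA run and can overlap. No other match to these spellings was found in these 3 sequences or in those of Tlr2 and Nlrp3. Looser forms of the sites were not searched, so a site of another spelling may be present. A match is a run of letters and was not tested for binding.

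Genes that work with the sensors were counted from lists of pathway genes. Counts for these lists are from uncentred means of log2(RPKM + 1) only. Those against monocyte-derived cells can depend on depth and scale. There, 13.9% of the calls over all genes were higher in Kupffer cells, and 39.2% after centring on the median gene. With RPKM averaged before the logarithm, none of the sensor genes called lower there was still called. Of the other Toll-like receptor genes, Tlr12 followed the pDC pattern with mean levels of 4.32 in pDC, 1.63 in Kupffer and 0.54 in B cells, and pDC exceeded B cells by 3.83 ± 0.78 (limma, 5 of 5 mice, adjusted p = 0.0097). Tlr8 was higher in Kupffer than in endothelial cells (1.10 ± 0.21, 6 of 6 mice, adjusted p = 0.00143), and Tlr1 was higher in B than in Kupffer cells in 6 of 6 mice (limma, Kupffer minus B -1.45 ± 0.31, adjusted p = 0.00311). Of the 7 genes of this list, 2 of 3 tested were higher and 0 lower in Kupffer than in endothelial cells, beside 13.8% and 27.8% of all genes.

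Of 9 genes for accessory and trafficking proteins, all of them tested, 5 were higher and 2 lower in Kupffer than in endothelial cells, where 13.8% and 27.8% of all genes were. Unc93b1, whose product carries the endosomal receptors out of the endoplasmic reticulum, had mean levels of 7.39 in Kupffer, 3.88 in endothelial and 9.26 in pDC, and Ly86, which encodes MD-1, 6.27, 1.44 and 7.18. Lbp, which encodes the lipopolysaccharide-binding protein, was higher in endothelial cells by 1.21 (limma, Kupffer minus endothelial -1.21 ± 0.21, 6 of 6 mice lower, adjusted p = 0.000624), and so was the scavenger receptor gene Cd36 (-2.22 ± 0.31, adjusted p = 0.000122). Lbp is also made by hepatocytes, and the 8 hepatocyte markers summed to 1005 to 6162 RPKM in endothelial and 2766 to 9144 in Kupffer cells, with their part in the value not tested. The endosomal transporter Slc15a4 was lower in Kupffer than in monocyte-derived cells (-3.02 ± 0.42, limma, adjusted p = 8.79e-05) and its relative Slc15a3 higher (2.06 ± 0.39, adjusted p = 0.0012), both in 6 of 6 mice.

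Downstream, of 18 adaptor and kinase genes, 12 were tested and 0 called between Kupffer and endothelial cells (limma, adjusted p, 1 with an unadjusted p under 0.05), where 41.6% of all genes were called. Against pDC 0 of 12 were called (1 with an unadjusted limma p under 0.05), beside 17.1% of all genes. With 5 mice, the standard errors against pDC were larger, at 0.46 for Cd14 and 0.56 for Tlr7 against 0.22 and 0.20 against endothelial cells. Against monocyte-derived cells 3 of 14 tested were lower and 0 higher, near the 22.7% and 3.65% of all genes, among them Ikbkb, a kinase that releases NF-kB (-3.53 ± 0.40, 6 of 6 mice, limma, adjusted p = 1.68e-05), and against B cells 3 of 12 were lower and 0 higher, beside 20.6% and 17% of all genes. Without centring, 7 of the 9 transcription factor genes were lower and 1 higher in Kupffer than in monocyte-derived cells. The shares of all genes were the same 22.7% and 3.65%. Irf5, a factor of inflammatory gene expression, was lower by 3.84 (limma, -3.84 ± 0.43, 6 of 6 mice, adjusted p = 1.19e-05), and Irf7, the factor of type I interferon induction, was higher by 3.05 ± 0.39 (6 of 6 mice, adjusted p = 4.39e-05). Irf7 had mean levels of 7.02 in Kupffer, 5.39 in pDC, 3.97 in monocyte-derived, 2.34 in endothelial and 1.94 in B cells. Irf8 was at 10.3 in pDC, and it was among the markers used to name that class.

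Of the 10 inhibitor genes, 4 were lower and 0 higher in Kupffer than in monocyte-derived cells, where 22.7% and 3.65% of all genes were, among them Nfkbia (limma, -2.97 ± 0.41, adjusted p = 8.41e-05). Of the 13 inflammasome and NOD genes, 5 of 10 tested were lower and 0 higher in the same comparison, beside the same 22.7% and 3.65% of all genes. Among the 5 were the adaptor gene Pycard (-1.98 ± 0.45, adjusted p = 0.00417) and the pore gene Gsdmd (-2.83 ± 0.42, limma, adjusted p = 0.00017). The list counts against monocyte-derived cells were not repeated after centring or with RPKM averaged first. Whether depth and scale account for them was not tested. Il18 was higher in Kupffer than in endothelial cells (1.30 ± 0.22, 6 of 6 mice, limma, adjusted p = 0.00051). Of the 10 cytosolic nucleic acid sensor genes, 1 of 9 tested, Zbp1, was lower in Kupffer than in monocyte-derived cells (-1.65 ± 0.39, limma, adjusted p = 0.00589) and 0 higher, beside 22.7% and 3.65% of all genes. Of the cytokine genes, Il1b was higher in Kupffer than in endothelial cells (2.49 ± 0.22, limma, adjusted p = 3.78e-06) and Il1a lower (-1.39 ± 0.18, adjusted p = 8.35e-05), each in 6 of 6 mice, with the neutrophil mean of Il1b at 10.3.

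Across the 51 class by mouse means, the genes most like each sensor gene were taken from 3950 genes with a mean level of at least 1, as a description. Tlr7 was closest to Lair1 (Pearson r = 0.85), Npc1 (0.80) and Plac8 (0.78), and Tlr9 to Bri3bp (0.89), Msmo1 (0.88) and Rnase6 (0.87). For Tlr13, Mcemp1 (0.85) and Itgam (0.80) were among the closest. Nlrp3 was closest to Gp49a (0.87), Tnfaip2 (0.87) and Il1b (0.84), and Cd14 to Ptplad2 (0.88), Lpcat2 (0.86) and Fcgr3 (0.85). Among the 10 genes, Tlr7 and Tlr9 were closest to each other (0.76), and Ly96 had no close partner (0.30 at most, with Nlrp3). The means share mice, depth and class sizes, so no p is given.

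The diets were compared within classes to ask whether high-fat feeding shifted the sensors. In Kupffer cells 9 of the 10 genes were tested and 0 called, as were 0% of all 6122 genes (1.8% with an unadjusted limma p under 0.05). In monocyte-derived cells 0 of 9 were called, with 0% of 7573 genes (3.74% with p under 0.05), in endothelial cells 0 of 4, with 0% of 7132 (2.97%), and in B cells 0 of 3, with 0% of 6454 (4.54%). With 3 mice per diet the exact permutation test cannot go below p = 0.1.

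The Kupffer levels of Tlr13 were the only ones of 40 gene and class values in which the diets did not overlap, at 0.72, 1.17 and 0.94 on normal diet and 0.37, 0.52 and 0.54 on high-fat diet. The difference was -0.47 (exact two-sided permutation p = 0.1; limma, 95% interval -1.18 to 0.24, adjusted p = 1), and 4.36% of all genes in Kupffer cells lay lower on high-fat diet without overlap and 1.36% higher. In the other classes, where no sensor gene did so, these shares were 5.7% and 3.34% in monocyte-derived, 6.45% and 0.967% in endothelial and 10.1% and 0.527% in B cells. The other Kupffer differences, high-fat minus normal, ran from -0.57 for Cd14 (95% interval -1.61 to 0.47) to 0.26 for Myd88 (-0.48 to 1.0). Tlr4 was at -0.07 (-0.97 to 0.83) and Tlr2 at -0.01 (-0.75 to 0.73).

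In endothelial cells Tmem173 had the lowest diet difference, -0.67 (95% interval -1.49 to 0.16), and in B cells Tlr9 was at 0.51 (-0.38 to 1.40). In monocyte-derived cells, with 6 to 9 cells per mouse, the intervals were wide, as for Tlr2 at -1.09 (-2.90 to 0.72). Without the dendritic subcluster, of which HFD3 had 0 cells, Tlr2 was at -0.31, Myd88 at 1.96 (0.43 with it), Tlr7 at -1.28 (-0.65), Tlr9 at -0.83 (-0.18) and Cd14 at -0.50 (0.41), with 0 of these genes called in either fit. Whether a diet difference differed between Kupffer and endothelial cells was tested for 7 of the genes, with 0 called and 0% of 6849 genes (3.05% with an unadjusted limma p under 0.05). The lowest was Cd14, at -0.82 (95% interval -1.71 to 0.07, limma, adjusted p = 1).

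**Figure D5:**
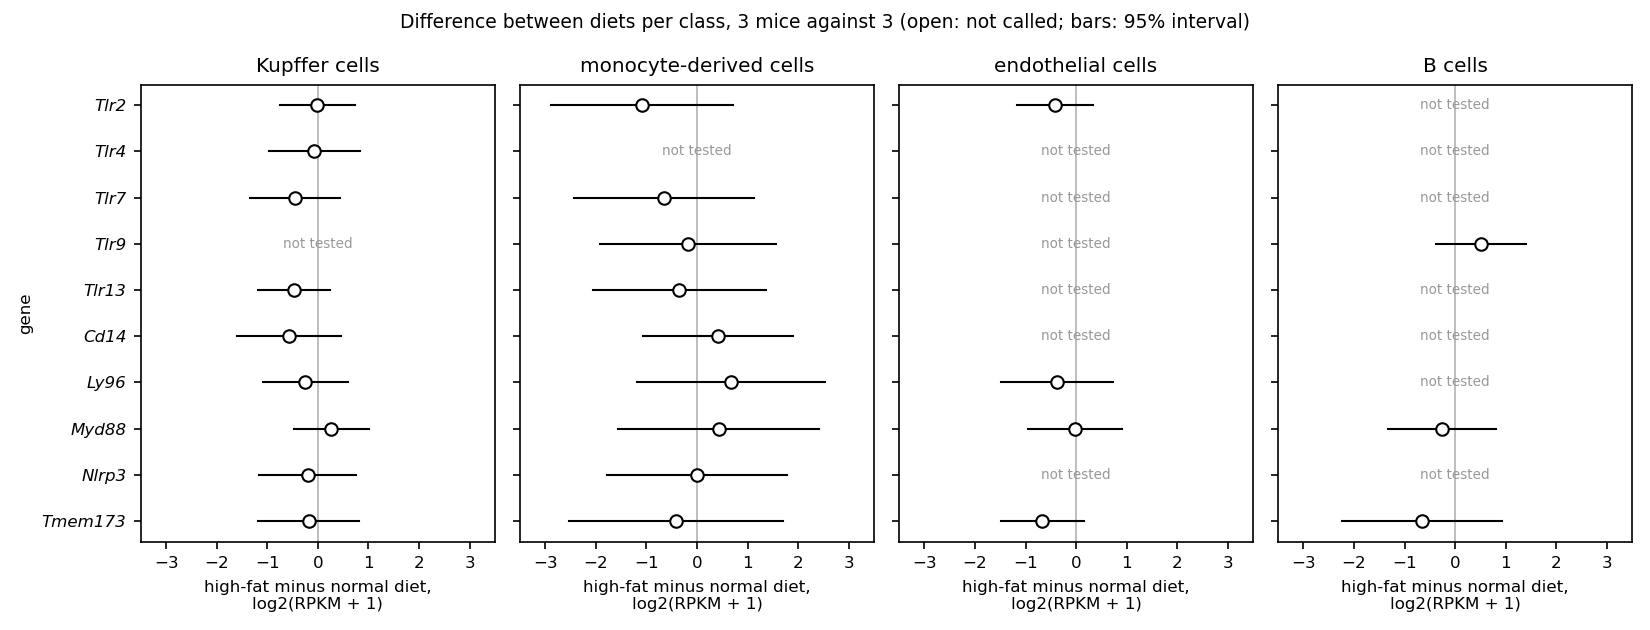
Difference in log2(RPKM + 1), high-fat minus normal diet, per gene and class, from 3 mice against 3, with 95% intervals; genes under the expression filter read "not tested". All points are open, since none was called, and every interval includes 0.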

How the data were processed

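The authors deposited a table of RPKM values (reads per kilobase of transcript scaled to the mapped reads of the cell) for single cells, made with STAR on mm10 per the labels. Mapped read totals are not given, so reads per cell were estimated from whole-read steps over 9861 genes with a known transcript length, of which a median of 81.9% lay within 10% of a whole read. This sets the precision: intervals (Wilson, 95%) and limits for 0 (3 counts) cover counting error only.

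Cells were clustered on 1000 variable genes and 20 principal components (scikit-learn 1.9.0), leaving out 93 sensor and pathway genes, and 13 clusters were named from marker lists. The T and NK clusters were merged. Doublets were not called again. Class means of log2(RPKM + 1) per mouse, with a pseudocount of 1, were compared within mice or between diets with limma 3.58.1 in R 4.3.3, over genes with a mean level of at least 0.5, with Benjamini-Hochberg adjustment over all genes tested and a threshold of 0.05. Single values were tested with exact permutations. The name of every cell column is the title of 1 labelled sample, and that label gives the mouse. Mice were the replicates, 3 per diet, and p-values measure the spread between them.

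All 10 sensor genes are named, and from each pathway list up to 4 called genes with the largest differences, 2 in each direction. The genes, lists and tests were chosen with earlier results of these data known. The fits were tested on simulated data. Alternatives covered the pseudocount, averaging RPKM first, rescaling, clusters, a marker gate, filters, cell minimums, the replicate block, an exact test and leaving out each mouse. Centring, a minimum of 1 cell and leaving out the dendritic subcluster were chosen after seeing the data.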

Additional observations from a re-analysis of the deposited data

Results flagged for a closer look

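Each value here is 1 mouse that stood apart from the others of its class by Dixon's test, which singled out 6 of 50 sets of gene and class. The test singles out about 1 in 20 sets of normal values by chance, a rate that does not hold for sets with many zeros. Nlrp3 in Kupffer cells of ND3 was at 1.533 (13 of 40 cells detected) against 0.05 to 0.57 in the other 5 mice. Cd14 in endothelial cells of HFD3 was at 1.395 (14 of 34 cells) against 0.02 to 0.49, in the mouse with the highest Kupffer marker sum in that class. Ly96 in monocyte-derived cells of HFD1 was at 3.381 (5 of 7 cells) against 0 to 0.70, in the mouse with the highest endothelial marker sum in that class. The other 3 were in pDC and rest on 2 to 5 cells. Tlr4 was at 1.819 in ND3 (1 of 2 cells) against 0 to 0.29. Cd14 was at 0.2317 in HFD3 (1 of 5 cells) and Tlr13 at 0.2663 in HFD3 (0 of 5 cells at an RPKM of 1 or more), each against 0 in the other 4 mice, a set in which any value above 0 would stand apart.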

How the results depend on the processing

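Of 19 called differences, 15 were called without each mouse in turn, and 0 changes of sign involved a call. In every other fit that tested the gene, the exact sign-flip test left out, 6 were called. Counts below are sensor genes higher or lower, or all genes called as a percent of the 14915 in the table, which were 12.6%, 19.1%, 16.2% and 8.37% for Kupffer against monocyte-derived, endothelial, B and pDC and 5.08% for pDC versus B. Averaging RPKM before the logarithm gave, against monocyte-derived cells, 1 higher, 0 lower and 3.84% called, 0 lower against endothelial, 2 lower against B, 1 lower and 4.95% against pDC, and for pDC versus B 1 higher and 2.68%. With no filter, monocyte-derived gave 2 lower and 6.43%, B 0 lower, pDC 0 lower and 3.85%, and pDC versus B 0 higher and 1.37%, with more genes tested. A level of at least 1 gave 1 higher against endothelial, 1 against B and 0 against pDC, with fewer genes tested, and 1 gene for diet in Kupffer cells. Centring gave 1 higher and 7.79% against monocyte-derived cells, 1 lower against pDC and 1 gene for diet in Kupffer cells. The exact sign-flip test, which with 5 mice cannot pass and with 6 mice passes the adjustment only where most genes reach its smallest p, gave 0 sensor genes and 0% in all 5 class comparisons. With 15 clusters, 2 were lower against B. With 10 principal components, 0 were higher against pDC, pDC versus B gave 4 higher and 8.88%, and no monocyte-derived class was found, so that comparison has no value. At least 5 cells gave 0 higher against pDC, and at least 1 cell 3.31% for pDC versus B. A mean-variance trend gave 1 lower against pDC and 2, 3 and 2 genes for diet in Kupffer, endothelial and B cells. For changes not explained by the number of genes or mice, the cause was not tested.

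Leaving out 1 mouse gave 0 to 2 lower against B (0 without ND1 or HFD1, 2 without ND3). Against pDC it gave 0 to 1 higher (0 without ND1 or HFD3), 1 to 2 lower and 5.26% to 8.84% (5.26% without HFD1), and for pDC versus B 3.17% to 5.42% (3.17% without HFD1). For diet in Kupffer cells it gave 0 to 1 genes (1 without HFD2). Correlations of same-numbered mice of the 2 diets passed 0.1 in all 3 pairs in B cells (0.105 to 0.182). In the other classes at most 1 such pair did. Pairs of unlike number also passed it in endothelial cells, at 0.149 for ND1 with HFD3 and 0.164 for ND3 with HFD1. This measure therefore cannot show whether the numbers paired the mice, and no conclusion is drawn from it. The replicate block gave 0 genes called in every diet fit, with 2.07%, 4.66%, 3.83%, 6.6% and 2.12% of genes at an unadjusted limma p under 0.05 in Kupffer, monocyte-derived, endothelial, B and the difference between classes. Of 200 levels, 86 moved by more than the spread between mice, 45 of them with RPKM averaged first and 38 with a pseudocount of 0.1.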
